A study of Mus musculus with 12 samples.

Results

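Cdh8 and A330008L17Rik are 2 of the 55335 genes counted in nuclei of the newborn mouse forebrain. Cdh8 codes for cadherin-8, and A330008L17Rik is an annotated long noncoding RNA that starts beside it on the opposite strand. The pair was selected by symbol, and it was of interest because both genes had been lower in the striatal D1 and D2 neurons of Het animals in an earlier pass over these data. The genotype differences in those cells are therefore given as a description with no test.

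Single-nucleus RNA sequencing was performed on forebrains of 12 mice at postnatal day 1 (P1). The libraries came from 8 WT animals (5 males and 3 females) and 4 Het animals (3 males and 1 female) of the MYT1L S710fsX line, with 1 library per animal. Het animals carried 1 copy of the S710fsX frameshift allele in the germline, and WT animals carried none. The genotype numbers are those of the labels, the series' design text and the article's methods, whereas a sentence in its Results has them the other way round. The line was kept on a C57BL/6J background by crosses of Het with C57BL/6J mice. The article's methods do not name the cross that gave the P1 animals, and which litter each came from is not in the labels. Barcodes numbered 6014 to 16782 per library and counts 15439429 to 40784144 unique molecular identifiers (UMIs, which count captured RNA molecules). No barcode was shared between libraries, and 96467 nuclei remained after the filters and removal of marked doublets.

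Myt1l, the zinc finger transcription factor carrying the allele, was not lower in Het libraries. Over all kept nuclei its mean level was 1424 ± 109 CPM (counts scaled to an equal total in each library; SD, n = 8) for the WT libraries and 1570 ± 51.9 (SD, n = 4) for Het libraries, with a log2 difference of 0.11 that edgeR did not call (adjusted p = 0.55). Counts over the whole gene do not separate the 2 alleles, so this value does not check the genotype labels.

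Cadherins are calcium-dependent adhesion molecules that bind their like on a neighbouring cell and are anchored to the actin skeleton through catenins. Cadherin-8 belongs to the type II classical cadherins, which are expressed in different combinations by different neurons and take part in the sorting of neurons and the matching of their synaptic partners. Long noncoding RNAs that start beside a protein-coding gene and run the opposite way are called divergent transcripts, and such pairs often share a promoter region. The spiny projection neurons of the striatum fall into a D1 type, which carries the dopamine receptor Drd1, and a D2 type, which carries Drd2.

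In the mm10 genome, Cdh8 (ENSMUSG00000036510.17) spans chr8:99024471-99416471 on the minus strand, a length of 392001 bases with 7 annotated transcripts of 5 to 13 exons. A330008L17Rik (ENSMUSG00000052479.5, annotated as lincRNA) spans chr8:99416642-99733438 on the plus strand, a length of 316797 bases with 2 transcripts of 3 to 5 exons. The annotated starts are 171 bases apart and the genes run away from each other. Of the 22 annotated genes within 2 Mb of the Cdh8 start, Cdh8 included, none of the others is protein-coding. The minus-strand Gm15680 overlaps both members, Gm8688 lies inside A330008L17Rik, and Gm15681, Gm24693, Gm45297 and Gm15679 overlap Cdh8. Strand use in counting was not stated in the labels or methods, so reads in the overlaps cannot be told apart with certainty.

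**Figure D1:**
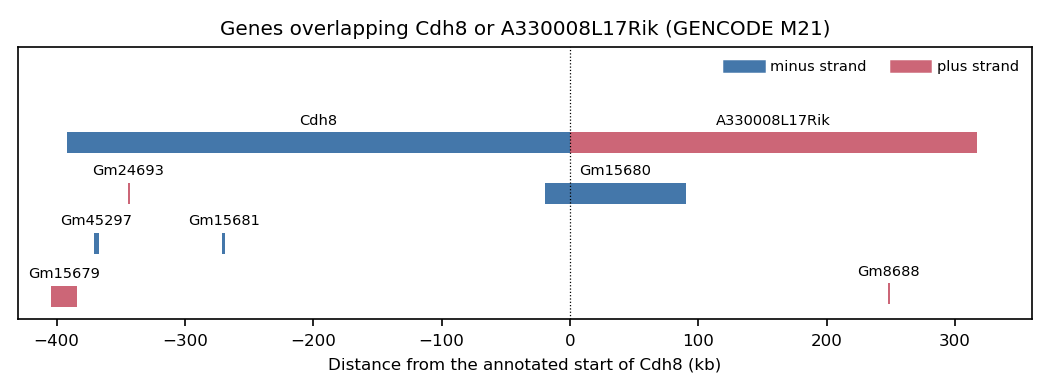
Map of the genes that overlap Cdh8 or A330008L17Rik in GENCODE M21, with distance from the annotated start of Cdh8 in kb on the x axis and strand shown by colour (blue minus, red plus). The 2 members lie on either side of the dotted line and run in opposite directions, with starts 171 bases apart, and Gm15680 crosses the line.

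The stretch between the 2 annotated starts is shown because it is the only sequence that separates them. It is read 5′ to 3′ on the plus strand from the RefSeq promoter table (GRCm38.p6), with motif matches in capitals.

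chr8:99416472-99416641: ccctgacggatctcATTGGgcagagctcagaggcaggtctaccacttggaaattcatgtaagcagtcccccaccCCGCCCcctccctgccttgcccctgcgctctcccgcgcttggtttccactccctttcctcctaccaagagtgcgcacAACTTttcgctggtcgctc

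The stretch holds 170 bases with a GC content of 60.6%, against a median of 53.5% over the 32851 promoter windows cut to the same length. Of these windows, 31.5% had at least that GC content. The stretch holds 8 CpG dinucleotides, against a median of 4. Both strands were searched for 4 motifs. CCAAT, the CCAAT box, matched once on the minus strand, so it is read as ATTGG in the line printed here. The GC box, searched as GGGCGG, also matched once on the minus strand. AAGTT, the core of the motif bound by the MYT1 family of zinc finger factors, matched once on the minus strand near the A330008L17Rik start. TATAAA, the TATA box, had no match. These short motifs are common, since AAGTT was in 24.0%, GGGCGG in 29.8%, CCAAT in 26.6% and TATAAA in 8.40% of all windows of that length. The matches describe the letters and say nothing of binding.

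Nuclei were grouped by clustering without the members, the other cadherins and catenins, or genes within 2 Mb of the locus, and 35 of 42 clusters were named from marker lists. The named clusters made 18 classes and held 91.08% of the kept nuclei. D1-like nuclei carried Ebf1 at 2530 CPM, Isl1 at 140, Tac1 at 72.5 and Drd1 at 32.5, with Drd2 at 6.64. D2-like nuclei carried Drd2 at 452 CPM, Sp9 at 70.7, Adora2a at 42.7 and Penk at 28.4, with Drd1 at 0.835. Both held the retinoic acid receptor Rarb, a marker of spiny projection neurons, at 2546 and 2443 CPM. Chrm4, a D1 marker of the mature striatum, was near 0 in both. Of the 15 markers listed for each class, 13 were raised in D1-like and 11 in D2-like nuclei. The class listed as Microglia-like was led by Mrc1, F13a1 and Stab1.

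Levels were calculated as CPM of the counts summed over the nuclei of a class in 1 library. Cdh8 was highest in D1-like nuclei, at 4776 ± 797 CPM (SD, n = 12 libraries), and was next highest in D2-like nuclei at 2664 ± 636. Layer 5-like nuclei followed at 1423 ± 130, then the excitatory clusters without a layer name (Other excitatory) at 1108 ± 71.6, Upper-layer-like nuclei at 819 ± 124 and MGE-like interneurons, named for their origin in the medial ganglionic eminence, at 563 ± 60.3. Neighbours in the order among these 6 classes differed, by 0.36 to 0.87 on the log2 scale and in the same direction in at least 11 of 12 libraries. Exact sign-flip permutation tests within libraries gave adjusted p = 0.00195 for 4 of the 5 pairs and 0.00312 for the pair of Other excitatory and Upper-layer-like nuclei, and the unadjusted 0.000488 behind the former is the smallest that 12 libraries allow.

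Below MGE-like nuclei no neighbouring classes could be separated. MGE-like and Olfactory-type inhibitory-like nuclei (454 ± 213 CPM) differed by 0.44 on the log2 scale, with adjusted p = 0.116 by the exact permutation test. Layer 6-like nuclei held 255 ± 52.4 CPM, CGE-like interneurons (caudal ganglionic eminence) 230 ± 62.0, and Astroglia-like nuclei were lowest at 87.1 ± 32.1. Microglia-like nuclei (384 ± 252) and Mural-like nuclei (471 ± 387, 10 libraries) varied widely between libraries.

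A330008L17Rik was also highest in D1-like nuclei, at 181 ± 46.2 CPM, and in D2-like nuclei, at 153 ± 51.2 (SD, n = 12). The order then changed. Upper-layer-like nuclei came next at 97.7 ± 13.5, before Other excitatory at 77.2 ± 15.8, Layer 5-like at 66.3 ± 14.8 and MGE-like nuclei at 55.8 ± 13.6. D1-like exceeded D2-like nuclei in 11 of 12 libraries by 0.26 on the log2 scale, and D2-like exceeded Upper-layer-like nuclei in 10 of 12 by 0.61 (adjusted p = 0.0156 for each, exact sign-flip permutation test). Upper-layer-like nuclei exceeded Other excitatory nuclei by 0.35 in 11 of 12 libraries (exact permutation test, adjusted p = 0.0195). Other excitatory and Layer 5-like nuclei were not separated, nor were Layer 5-like and MGE-like nuclei (adjusted p = 0.0859 and 0.153, exact permutation). Further down, MGE-like nuclei exceeded Olfactory-type inhibitory-like nuclei by 0.76, and Endothelial-like exceeded Astroglia-like nuclei by 0.90. On thinned UMIs, D2-like still exceeded Upper-layer-like nuclei (adjusted p = 0.0391), whereas the other 4 pairs kept their direction at adjusted p from 0.0964 to 0.102 (exact permutation). With doublets kept, the Endothelial-like pair was not separated (0.0525). Layer 6-like nuclei were low for this gene as well, at 22.9 ± 6.70 CPM.

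**Figure D2:**
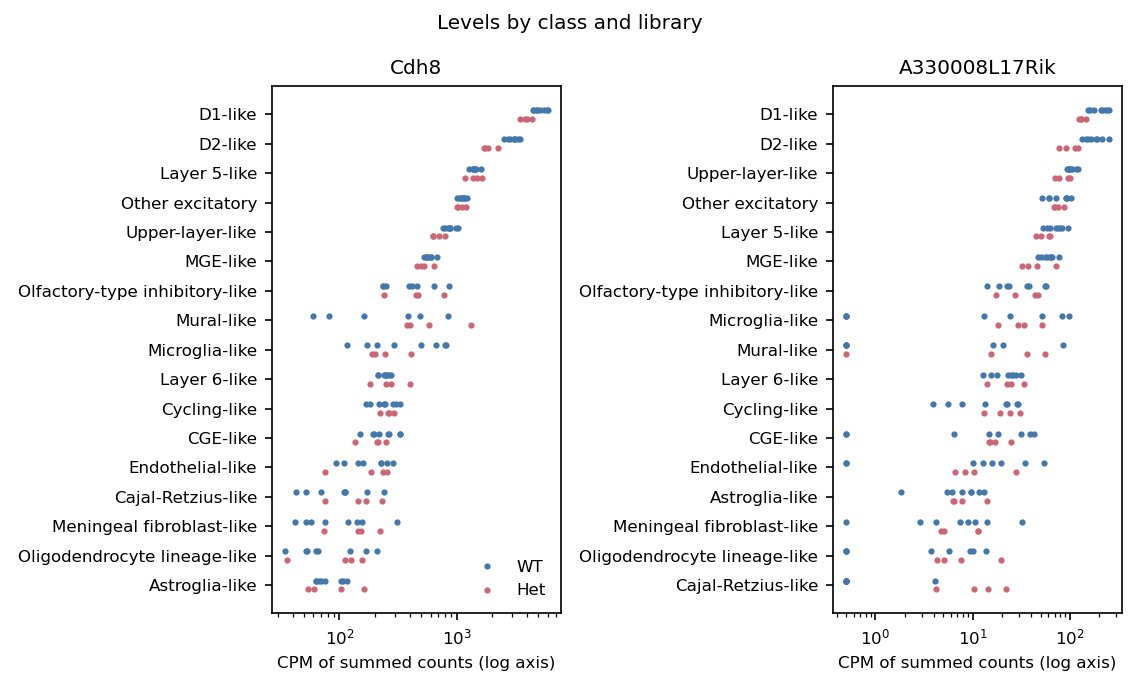
Level of each member in every class and library, as CPM of summed counts on a log x axis, with classes in order of their mean and 1 point per library (blue WT, red Het). Libraries whose summed count rounded to 0 are drawn at 0.5 CPM. D1-like and D2-like nuclei lead both panels, with Cdh8 between 3508 and 6018 CPM in D1-like nuclei.

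The 2 genes took different proportions in different classes. For each 100 Cdh8 UMIs there were 3.76 ± 0.568 UMIs of A330008L17Rik in D1-like nuclei, 4.67 ± 1.03 in Layer 5-like, 5.69 ± 1.01 in D2-like and 12.01 ± 1.35 in Upper-layer-like nuclei (SD, n = 12). The D1-like and D2-like nuclei made up 8.88% of kept nuclei, and they held 33.9% of all Cdh8 UMIs and 20.9% of all A330008L17Rik UMIs.

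Named classes were not uniform. Among the 5 Upper-layer-like clusters, Cdh8 was 357 CPM in that led by Rorb, Gpc5 and Sorcs1, and 1264 and 1440 CPM in those led by Adamts2 and Rspo2. Over the 9 Other excitatory clusters it ran from 150 to 2012 CPM, and over the 3 Layer 6-like clusters from 81.4 to 510.

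In Het libraries, Cdh8 was lower in the D1-like nuclei. WT libraries ran from 4528 through a median of 5032 to 6018 CPM, and the 4 Het libraries held 3508, 3839, 4007 and 4403. Every Het library was below every WT library. The means were 5194 ± 581 (SD, n = 8) and 3939 ± 372 (SD, n = 4), so that Het was 24.2% lower, and the edgeR estimate was −0.38 ± 0.10 (SE) on the log2 scale. Cdh8 was also lower in D2-like nuclei. WT libraries ran from 2527 through 3104 to 3510 CPM, and the Het libraries held 1705, 1757, 1866 and 2262, again without overlap. The means of 3047 ± 323 and 1897 ± 252 put Het 37.7% lower, with an estimate of −0.66 ± 0.12 (SE).

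A330008L17Rik followed in the same libraries. In D1-like nuclei WT ran from 153 through 210 to 252 CPM, and Het libraries held 125, 129, 131 and 147. The groups did not overlap, although the highest Het and lowest WT libraries were close. Means were 205 ± 36.9 in WT and 133 ± 9.83 in Het, 35.0% lower, and the estimate was −0.61 ± 0.10 (SE). In D2-like nuclei WT ran from 133 through 175 to 251 CPM and Het libraries held 76.5, 90.7, 112 and 121. Het was 44.3% lower (180 ± 39.0 against 100 ± 20.1) with an estimate of −0.80 ± 0.14 (SE), and once more no library overlapped.

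Among all genes with at least 100 UMIs, the Het libraries lay wholly below WT for 0.165% of 9111 genes in D1-like and 0.137% of 6559 in D2-like nuclei. EdgeR called 4 of 9230 genes (0.0433%, and 0.0217% lower in Het) in D1-like and 4 of 6207 (0.0644%) in D2-like nuclei at an adjusted p under 0.05. The members were selected from this contrast, so these shares are background only.

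The thinnest library, WT male 4, held 19 D1-like and 10 D2-like nuclei and had the highest level of both genes in both classes. Without it the estimates were −0.38 and −0.68 for Cdh8 and −0.61 and −0.80 for A330008L17Rik, in D1-like and D2-like nuclei respectively. Nuclei per library ran from 19 to 641 in WT and from 530 to 949 in Het for D1-like nuclei. Each marker list, summed within D1-like or D2-like nuclei, overlapped between genotypes. In D1-like nuclei the sum for striosome markers was 408 to 742 CPM in WT and 424 to 665 in Het, and that for matrix markers 418 to 865 and 625.2 to 764.4. The excitatory neuron markers summed to 54.8 to 125 CPM in WT and 59.4 to 213 in Het. In D2-like nuclei the shared spiny neuron markers summed to 5124 to 7665 CPM in WT (mean 6001) and 4956 to 5645 in Het (mean 5247). The CGE interneuron markers there ran from 181 to 4548 CPM in WT and from 189 to 380 in Het, and the excitatory neuron markers from 25.0 to 99.96 and from 78.0 to 187. The part of these lists in the result was not tested.

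**Figure D3:**
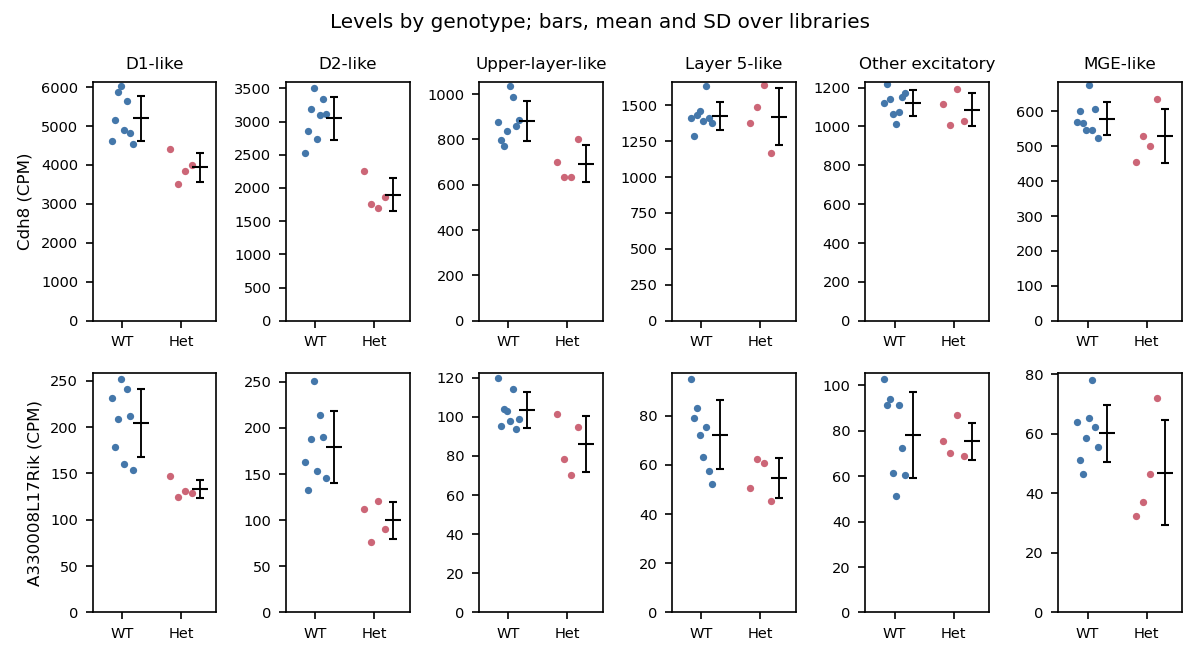
Cdh8 (upper row) and A330008L17Rik (lower row) in CPM by genotype in 6 neuronal classes, with 1 point per library and bars for the mean and SD (WT n = 8, Het n = 4). The 4 Het libraries sit below all WT libraries in D1-like and D2-like nuclei for both genes, and the groups overlap in the other 4 classes.

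The distribution of Cdh8 over single nuclei was then compared. Each nucleus was thinned to 800 UMIs so that depth was equal. In D1-like nuclei, those with 6 or more Cdh8 UMIs made up 28.5% ± 3.96 (range 23.8 to 33.0) in WT and 17.04% ± 2.37 (14.2 to 19.7) in Het, and those with none 9.95% ± 3.88 (4.85 to 17.7) and 15.5% ± 3.32 (11.1 to 19.1), which overlapped. In D2-like nuclei the share with none was 24.9% ± 3.96 (20 to 31.7) in WT and 39.6% ± 4.43 (33.0 to 42.7) in Het, and that with 6 or more 11.5% ± 2.76 (7.63 to 16.0) and 4.56% ± 1.49 (3.34 to 6.49). Most Het nuclei of both classes still held Cdh8, with fewer UMIs each. A nucleus with no UMI after thinning may still express the gene.

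Outside the striatal classes the genotype comparison was tested, since the members were not selected there. The nuclei came from the same animals as the D1-like and D2-like nuclei, so these tests are not fully independent of the selection. EdgeR called Cdh8 in none of the other 15 classes fitted, and A330008L17Rik in none of the 6 of them where it passed the filter on low counts. In those classes together it made 2 calls in 102215 gene-by-class tests (0.00196%), 1 in Cajal-Retzius-like nuclei (0.0274% of genes) and 1 in Layer 6-like nuclei (0.01%). Upper-layer-like nuclei came closest for Cdh8. WT libraries ran from 772 through 868 to 1035 CPM, Het libraries from 634 to 803, and 6 of 8 WT libraries were above every Het library. The means were 882 ± 88.9 and 693 ± 80.0, with a log2 difference of −0.34 ± 0.08 (SE), an unadjusted p of 0.000662 and an adjusted p of 0.52. DESeq2 gave −0.35 with an adjusted p of 0.0237 and called it, as 1 of 9 calls among the 7018 genes to which it gave an adjusted p (0.128%). EdgeR called none of 11793 genes in this class (753 at an unadjusted p under 0.05, 6.39%).

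Within Upper-layer-like nuclei, the Het minus WT difference of Cdh8 was −0.36 to −0.38 on the log2 scale in 3 of 5 clusters and 0.02 and 0.04 in those led by Ccbe1 and Rspo2. The genotypes overlapped in each of the 5 clusters, and whether the clusters differed was not tested. With equal weight for each cluster the difference was −0.21 (exact permutation test, two-sided, p = 0.0343, adjusted p = 0.275 over 8 tests). A330008L17Rik was 103.4 ± 9.28 CPM in WT and 86.1 ± 14.3 in Het in this class, a log2 difference of −0.27 ± 0.10 (SE) with adjusted p = 0.68 by edgeR.

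In Layer 5-like nuclei, the cortical class richest in Cdh8, the 2 genotypes were close. Cdh8 was 1425 ± 98.4 CPM in WT and 1420 ± 199 in Het, with a 95% interval for the log2 difference of −0.17 to 0.19. A330008L17Rik was 72.2 ± 14.01 and 54.7 ± 8.21 CPM in the same nuclei, a log2 difference of −0.41 ± 0.18 (SE) and an adjusted p of 0.62 by edgeR. In MGE-like nuclei the differences were −0.14 ± 0.09 for Cdh8 and −0.37 ± 0.17 for A330008L17Rik (adjusted p = 0.77 and 0.62, edgeR). Without Het female 1 they were −0.25 and −0.66 (adjusted p = 0.37 and 0.0859, edgeR), and without Het male 1 they were −0.08 and −0.23. Other excitatory nuclei differed by −0.04 ± 0.07 and −0.05 ± 0.16, and Layer 6-like nuclei by 0.18 ± 0.13 and 0.10 ± 0.23. Olfactory-type inhibitory-like nuclei differed by 0.18 ± 0.34 for Cdh8 and 0.41 ± 0.33 for A330008L17Rik (adjusted p = 1.00 for both, edgeR). In CGE-like nuclei Cdh8 differed by −0.27 ± 0.18, and A330008L17Rik was too low to be tested.

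**Figure D4:**
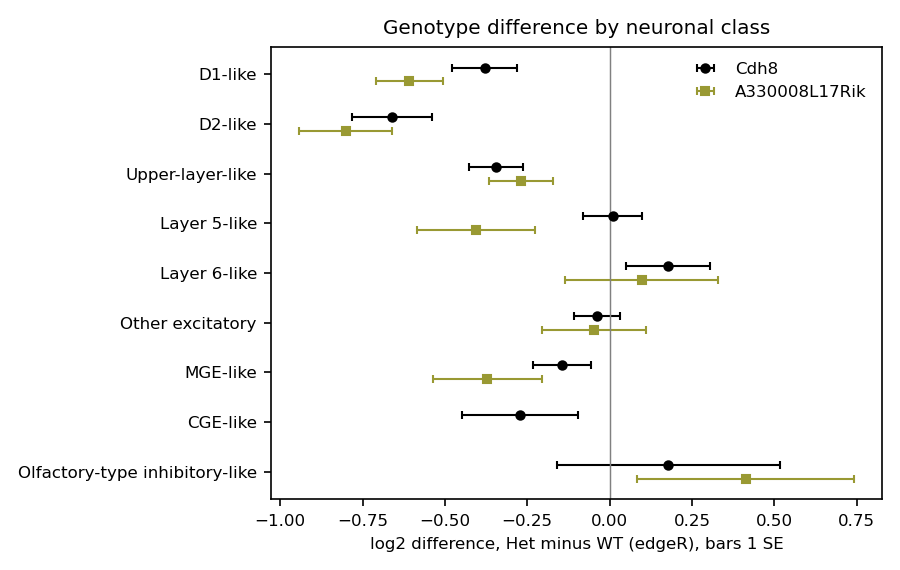
Log2 difference of Het minus WT from edgeR for both members in 9 neuronal classes, with bars of 1 SE (Cdh8 black circles, A330008L17Rik olive squares, the latter not tested in CGE-like nuclei). D1-like and D2-like estimates lie between −0.38 and −0.80 and are shown as a description, and the Layer 5-like estimate for Cdh8 lies at 0.01.

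Whether the genotype difference itself differed between classes was tested among Upper-layer-like, pooled layer 5 and 6, MGE-like and CGE-like nuclei. None of 12 comparisons passed (exact permutation of genotype over libraries, two-sided). The 3 that set A330008L17Rik against CGE-like nuclei say little, since the gene failed the filter there and the summed count of 2 WT libraries was 0. The 2 with the lowest adjusted p, 0.327, set Cdh8 in Upper-layer-like nuclei against the pooled deep layers (−0.47) and against MGE-like nuclei (−0.21). Cdh8 differed between the 2 pooled classes, and their mix varied between libraries. Layer 5-like nuclei were 175 of the 1518 pooled in WT male 5 and 170 of 592 in WT male 4. The part of this mix in the −0.47 was not tested. With 8 and 4 libraries the smallest p possible is 0.00202. The D1-like and D2-like classes did not enter, as the members had been selected there.

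Both RNAs were often found in the same nucleus, counting any value above 0, divided counts included. Cdh8 was detected in 44207 of the kept nuclei (45.8%) and A330008L17Rik in 10511 (10.9%), and 8836 nuclei held both. Of nuclei with A330008L17Rik, 84.1% also held Cdh8, and of those with Cdh8, 19.99% held A330008L17Rik. Classes and depths differ, so co-detection was also measured within classes after thinning to 800 UMIs. Cdh8 was then found in 88.2% ± 4.47 of D1-like and 70.2% ± 8.20 of D2-like nuclei, and A330008L17Rik in 11.8% ± 2.38 and 9.95% ± 2.64. Astroglia-like nuclei, the class lowest in Cdh8 and taken here as the reference for background, held it in 5.01% and A330008L17Rik in 0.588%. Median UMIs before thinning were 2305 in D1-like, 1606 in D2-like and 1311 in Astroglia-like nuclei, and without thinning both genes were seen in 28.4% of D1-like and 19.5% of D2-like nuclei.

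Within classes, nuclei with A330008L17Rik more often held Cdh8. In Upper-layer-like nuclei Cdh8 was in 59.5% ± 3.46 of nuclei with A330008L17Rik and 35.8% ± 3.99 of those without it (SD, n = 12 libraries), and the log odds ratio of 0.97 ± 0.14 was above 0 in 12 of 12 libraries. In Other excitatory nuclei the shares were 68.1% and 39.2% (log odds ratio 1.203 ± 0.355, 12 of 12 libraries). Layer 6-like nuclei, where Cdh8 was sparse, held it in 38.4% and 12.5% (1.52 ± 0.36, 12 of 12). In D2-like nuclei it was 88.0% and 67.3% (1.21 ± 0.50, 11 of 11 libraries with at least 30 nuclei). D1-like nuclei held Cdh8 in 94.6% and 87.3% (0.93 ± 0.88, 10 of 11). MGE-like nuclei had 47.4% and 24.2% (1.04 ± 0.66, 12 of 12). Layer 5-like nuclei varied most, with 0.86 ± 1.11 and 9 of 12 libraries above 0.

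Computed within clusters, the log odds ratio was lower in the 4 neuronal classes made of several clusters. By the same estimator (without the 0.5 otherwise added to each count), it went from 0.97 to 0.75 in Upper-layer-like, from 1.47 to 0.98 in Layer 6-like, from 1.21 to 0.85 in Other excitatory and from 1.04 to 0.86 in MGE-like nuclei, and was lower in at least 11 of 12 libraries of each. D1-like, D2-like, Layer 5-like, CGE-like and Olfactory-type nuclei were 1 cluster each. The Het and WT libraries did not differ in co-detection past the correction in any of 7 classes tested. The lowest adjusted p was 0.141, in Upper-layer-like nuclei (1.09 ± 0.07 in Het against 0.90 ± 0.12 in WT, exact permutation test, two-sided, unadjusted p = 0.0202). The test in CGE-like nuclei says little. After thinning, WT male 2, WT male 3, WT female 1 and WT female 3 held no A330008L17Rik there, so the added 0.5 sets their values.

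**Figure D5:**
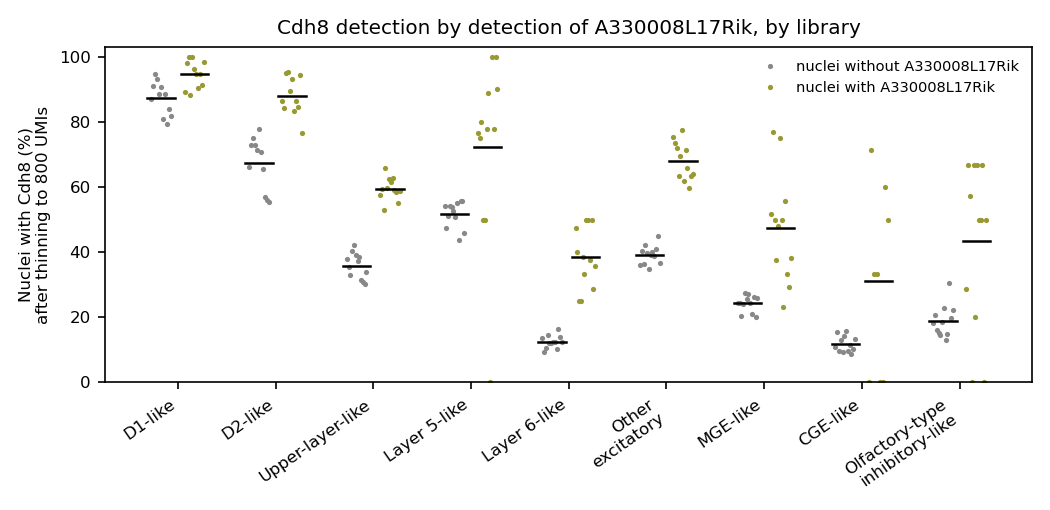
Percent of nuclei with Cdh8 after thinning to 800 UMIs, among nuclei without (grey) and with (olive) A330008L17Rik, in 9 neuronal classes with 1 point per library and a line at the mean. The olive mean is above the grey mean in each class, by 59.5% against 35.8% in Upper-layer-like nuclei.

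Levels across the 17 classes with values were compared for 14076 genes that reached a minimum CPM in at least 1 class. Marker genes used to name the classes were left out beforehand, so none of them could rank. Of the genes ranked, A330008L17Rik was most like Cdh8 (Pearson's r = 0.94 over class means of log2(CPM + 1)). It was followed by Gm15679 (0.93), Scn9a (0.92), Gm45297 (0.90) and Gm15680 (0.89). For A330008L17Rik the order was Gm15680 (0.97), Cdh8 (0.94), Scn9a (0.92), Gm45297 (0.91) and Gm15679 (0.90). The Gm genes overlap a member and may share reads with it. Scn9a, which codes for a voltage-gated sodium channel, lies elsewhere in the genome and reached 412 CPM in its highest class. The points share the same 12 libraries, so these values are a description.

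None of the other classical cadherins and the catenins was called. Of 23 listed genes (Cdh8 excluded), 20 could be tested in D1-like nuclei, 16 in D2-like, 19 in Upper-layer-like and 18 in MGE-like nuclei, and edgeR called 0 in any class. At an unadjusted p under 0.05 there were 3, 6, 4 and 5 genes in these classes, where 6.37%, 5.33%, 6.39% and 7.45% of all genes tested were under the same p. The count was highest in Other excitatory nuclei, with 8 of 20 genes (10.8% of all genes tested) and differences of the list from −0.79 to 1.12 on the log2 scale. The 6 genes under that p in D2-like nuclei were all type II cadherins, as Cdh8 is. All were lower in Het, by −0.42 to −0.61 (lowest adjusted p = 0.547, edgeR). The 3 genes in D1-like nuclei ran from −0.69 to 0.31. Of all listed genes tested, 13 in D1-like and 10 in D2-like nuclei were lower in Het. The type II cadherins were not tested as a set. The list's median log2 difference was −0.03 in D1-like and −0.08 in D2-like nuclei, against 0.00 for all genes tested in each. The lowest adjusted p was 0.0999, in MGE-like nuclei.

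Of the other annotated genes within 2 Mb, 3 could be tested in D1-like, 1 in D2-like and 2 in Upper-layer-like nuclei, and edgeR called none of them. Each of those tested overlaps a member and may share its reads. Their D1-like and D2-like values are therefore not free of the selection of the members. Gm45297, inside Cdh8 on its strand, differed by −0.44 ± 0.13 (SE) in D1-like nuclei (adjusted p = 0.36, edgeR), −0.41 ± 0.26 in D2-like and −0.39 ± 0.18 in Upper-layer-like nuclei. In pooled layer 5 and 6 nuclei it differed by 0.59 ± 0.35. Gm15679, which also overlaps Cdh8, differed by −0.03 ± 0.35 in D1-like and 0.28 ± 0.27 in Other excitatory nuclei. Gm15680, the annotated gene nearest to the members, differed by −0.44 ± 0.22 in D1-like and −0.26 ± 0.17 in Upper-layer-like nuclei (adjusted p = 0.78 and 0.85). Gm8688, the next nearest, was too low to be tested. Gm15680 summed to 1247 UMIs over all kept nuclei, against 214731 for Cdh8 and 14485 for A330008L17Rik.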

How the data were processed

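Nuclei of 12 P1 forebrains were barcoded with a Scale Biosciences kit, each animal in its own wells and all on the same plates. Reads were mapped to mm10 and counted per gene and nucleus by the authors with ScaleRna, and nuclei called with CellFinder (Seurat 4.3.0 is named in the submitters' processing notes). The deposited values are expected counts, UMIs of which some are divided among genes (6.58 to 6.88% of entries per library), and summed counts were rounded here. No deposited column lacked a sample.

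Barcodes with 800 to 6000 UMIs, 300 to 3000 genes, at most 1% mitochondrial counts and log(genes) at least 0.9 of log(UMIs) were kept (100035 of 126684). Of these, 3568 were removed as doublets, marked as the 5% of each library with the most simulated doublets among their neighbours. Nuclei were clustered by Leiden (leidenalg 0.10.2, resolution 2, 40 components, 3000 genes) with 1617 genes left out. These were both members, the listed cadherins and catenins, genes within 2 Mb, chromosome Y genes, Xist and Tsix. Mitochondrial genes were left out as well. Clusters were named from marker lists, with thresholds set after the clusters were seen. A class was fitted where at least 10 nuclei per library remained in 3 libraries of each genotype.

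Counts per class and library were compared with edgeR 4.0.16 (quasi-likelihood, TMM, genotype only, filterByExpr), with calls at a log2 difference of at least 0.2 and an adjusted p (Benjamini-Hochberg, over all genes tested) under 0.05. The fit was tested on simulated data. The SE of an edgeR estimate was derived from its log2 difference and quasi-likelihood F. The 95% interval is approximate, at 1.96 SEs on either side. Single values were compared with exact permutation tests (Python 3.11.15 with numpy 2.4.6), and DESeq2 1.42.0 was an alternative. The study's methods give 4 litters for the P1 animals, so some of the 12 shared a litter, and p-values treat them as independent. The members and lists were chosen with earlier results of these data known. Text was limited by rule to both members, the lists by counts, the nearest neighbours and Myt1l. It also covered the 5 genes per member with the most similar class levels, among genes that were not class markers. Equal weight over clusters and co-detection within clusters were added after seeing the data. Sequence came from RefSeq promoter windows of 300 bases, in which both members matched. Sex was no covariate, and male libraries alone and sex as a term were among the alternatives.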

Additional observations from a re-analysis of the deposited data

Results flagged for a closer look

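Among 86 groups of 4 to 8 libraries examined, 7 held 1 library far from the rest of its group, and chance alone marks about 1 group in 20. A330008L17Rik stood at 4.07 CPM in the Cajal-Retzius-like nuclei of WT female 2, whereas the summed counts of the other WT libraries rounded to 0, with divided counts in 4 of them. After rounding, the same class held 15 UMIs of this gene in all, of which 14 came from the 4 Het libraries, too few to be tested. In Endothelial-like nuclei Het male 3 had 28.2 CPM of A330008L17Rik, against 6.61 to 10.3 in the other Het libraries.

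WT male 1 stood apart in 3 groups of vascular and meningeal nuclei. Its Cdh8 level in Meningeal fibroblast-like nuclei was 309 CPM, against 41.8 to 154 in the other WT libraries, and its A330008L17Rik level there was 32.05 CPM against 0 to 13.9. In Mural-like nuclei its A330008L17Rik level was 84.9 CPM, against 0 to 20.4.

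Co-detection was marked in 2 groups. Het male 2 had a log odds ratio of 0.871 in Layer 5-like nuclei, against 1.86 to 2.01 in the other Het libraries. Het male 1 had 1.52 in MGE-like nuclei, against 0.407 to 0.584.

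Outside the named classes, the cluster of 3328 nuclei led by Snhg11, Gm29478 and Car10 held Cdh8 at 1321 CPM. It entered no comparison of classes.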

How the results depend on the processing

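Both genes kept their direction in D1-like and D2-like nuclei under each setting tried, from −0.33 to −0.43 for Cdh8 in D1-like and −0.61 to −0.75 in D2-like nuclei with 1 library left out, and from −0.57 to −0.65 and −0.66 to −0.90 for A330008L17Rik. Elsewhere, the only call gained was Cdh8 in Upper-layer-like nuclei by DESeq2 (−0.35, adjusted p = 0.0237). Leaving out 1 library gave −0.30 to −0.42 there, with adjusted p from 0.108 to 1.00 by edgeR. DESeq2 gave no adjusted p for A330008L17Rik in Layer 5-like and MGE-like nuclei.

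Differences near 0 changed sign, and the cause was not tested. Cdh8 in Layer 5-like nuclei was −0.00988 with no filter on low counts, in MGE-like nuclei 0.0147 with a looser gate and 0.00498 with equal weight over clusters, and in Other excitatory nuclei 0.0233 with equal weight. A330008L17Rik in Layer 6-like nuclei was −0.29 with equal weight. Without a change of sign, A330008L17Rik ran from −0.603 to −0.0354 in Layer 5-like nuclei over the settings other than a library left out. In MGE-like nuclei it ran from −0.605 to −0.144, the latter with equal weight over clusters. The male libraries alone turned the MGE-like against CGE-like difference of Cdh8 to −0.0391. With 1 library left out, the ranges that crossed 0 were −0.0707 to 0.0966 (Cdh8, Layer 5-like), −0.0518 to 0.325 (Cdh8, Layer 6-like), −0.18 to 0.41 (Cdh8, Olfactory-type), −0.11 to 0.28 (A330008L17Rik, Layer 6-like) and −0.127 to 0.0176 (A330008L17Rik, Other excitatory). Other ranges were wide without crossing 0, at −0.25 to −0.08 (Cdh8, MGE-like), −0.42 to −0.14 (Cdh8, CGE-like), −0.0887 to −0.00765 (Cdh8, Other excitatory), −0.66 to −0.23 (A330008L17Rik, MGE-like), −0.38 to −0.17 (A330008L17Rik, Upper-layer-like) and 0.19 to 0.59 (A330008L17Rik, Olfactory-type). Between classes they were −0.233 to 0.0105 (Cdh8, Upper-layer-like against CGE-like), −0.0626 to 0.300 (Cdh8, MGE-like against CGE-like), −0.270 to 0.0165 (A330008L17Rik, Upper-layer-like against deep layers) and −0.10 to 0.31 (A330008L17Rik, Upper-layer-like against MGE-like).

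Same-numbered WT and Het libraries did not deviate together (correlations −0.057, 0.015, 0.091 and 0.349, and 0 of 4 Het libraries closest to their own number), so the numbers do not pair the animals. With the replicate number as a block, Cdh8 was −0.0165 in Layer 5-like and −0.18 in Olfactory-type nuclei, A330008L17Rik was −0.23 in Layer 6-like, −0.33 in Other excitatory and 0.12 in Olfactory-type nuclei, Cdh8 was −0.12 in CGE-like nuclei, and 14, 1 and 43 genes were called in D1-like, D2-like and the other classes together. The block changed no call of the members outside D1-like and D2-like nuclei.

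Counts of called genes moved most. In D1-like nuclei (4) they were 45 with no filter, 7 in males and 1 with all deposited barcodes, and in D2-like nuclei (4) 9 by DESeq2, 16 with no filter, 2 with sex as a covariate and 1 in males. In the other classes (2) they were 63 by DESeq2, 743 with no filter, 4 with sex, 247 in males and 1 with a looser gate, doublets kept, all deposited barcodes or whole entries only. With 1 library left out they ran from 0 to 21, 0 to 10 and 1 to 285, the last without Het female 1. Neighbouring class pairs that differed in A330008L17Rik (5) numbered 3 with doublets kept, 1 on thinned UMIs and 3 to 5 with 1 library left out, with the classes put in order anew each time.

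The within-cluster values also leave out the 0.5 added to each count. The log odds ratio of co-detection was 1.399 without thinning, 1.21 when 2 UMIs were needed and 0.75 within clusters in Upper-layer-like nuclei. It was 2.65 and 0.98 (2 UMIs, within clusters) in Layer 6-like and 1.93 and 1.66 (not thinned, 2 UMIs) in Other excitatory nuclei. When 2 UMIs were needed it was 3.57 in CGE-like and 2.40 in Olfactory-type nuclei. No CGE-like nucleus held 2 A330008L17Rik UMIs after thinning. The 3.57 there holds no co-detection and follows from the 0.5 added to each count and the sparse Cdh8. Several Layer 6-like and Olfactory-type libraries also lacked such a nucleus, so their values at 2 UMIs are partly of this kind. Over all settings other than a library left out, the log odds ratio ran from 0.60 to 1.65 in D1-like nuclei. In Layer 5-like nuclei it ran from 0.41 to 1.56. Its genotype difference turned to −0.55 in Layer 5-like and 0.0724 in CGE-like nuclei when 2 UMIs were needed. The CGE-like value holds no co-detection, and several Layer 5-like libraries also had no nucleus with 2 A330008L17Rik UMIs. In Upper-layer-like nuclei the genotype difference ran from 0.13 to 1.35 over these settings. With 1 library left out the genotype difference ran from −0.220 to 0.00998 in Layer 6-like, −0.797 to 0.00245 in CGE-like and −0.433 to 0.0524 in Olfactory-type nuclei. The CGE-like range rests in part on WT libraries with no A330008L17Rik after thinning.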
